A study of Mus musculus with 2 samples.

Results

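Endothelial activation and acute-phase genes were followed here as a set of 9 genes, Lcn2, Icam1, Vcam1, Selp, Sele, Ackr1, Il1r1, Socs3 and Vwf, out of 32285 genes listed in both libraries. They were taken by symbol, and each was summed over cells of marker-defined classes that passed the filters of at least 1000 UMIs (distinct tagged RNA molecules), at least 500 genes and at most 10% mitochondrial UMIs. The 9 genes were chosen by name with their levels in endothelial subtypes and their cKO-to-control ratios in these same libraries already known, so those values are given as a description. The study's question is what brain tissue around a glioblastoma graft looks like when its myeloid cells lack Plexin-B2.

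The cKO library came from a host of genotype Cx3cr1 CreER/+ Plxnb2fl/fl, with 2 floxed alleles, and the control library from a host of genotype Cx3cr1 CreER/+ Plxnb2 fl/+, with 1 floxed allele. The control is titled WT but is a heterozygote that also carries the Cre. Both hosts, on a C57BL/6 background, received KR158 cells, a mouse glioblastoma line, in the brain and tamoxifen at 100 mg/kg, begun 3 days ahead of the graft and repeated on alternate days until tissue was taken at 8 weeks. The tissue reached about 1 mm to either side of the injection site. The Cre is driven from the Cx3cr1 locus, which is active in microglia and other myeloid cells and not in endothelium, so endothelial cells of the cKO host are not the intended target of the deletion. There was 1 library per genotype, so no value has a replicate check, and genotype, animal and library cannot be told apart.

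Brain endothelium forms the blood-brain barrier and changes along the vessel from artery through capillary to vein. During inflammation, cytokines such as IL-1 act through NF-kB and STAT3 to switch on adhesion molecules, chemokine-handling receptors and acute-phase proteins, chiefly in veins and venules, where leukocytes leave the blood. ICAM1 and VCAM1 hold leukocytes through integrins, P-selectin (Selp) and E-selectin (Sele) let them roll, and ACKR1 carries chemokines across venular endothelium without signalling. IL1R1 is the signalling receptor for IL-1, SOCS3 is a feedback inhibitor of STAT3, von Willebrand factor (Vwf) is a clotting protein stored in endothelial granules, and lipocalin-2 (Lcn2) is a secreted acute-phase protein that binds bacterial iron carriers.

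The sequences show matches to 4 binding motifs, for NF-kB, STAT, AP-1 and C/EBP factors, before the RefSeq starts of these genes. RefSeq promoters of build GRCm38.p6 were found for 7 of the 9 genes, and 4 motifs were searched on both strands in the 250 bases before each start. These were the kappaB consensus, TTCNNNGAA for STAT factors, TGANTCA for AP-1 and TTGCNNAA for C/EBP factors, none of which was counted as another. The kappaB consensus was GGGRNNYYCC, with R for A or G, Y for C or T and N for any base. Shorter or near forms, such as the GGAAATTCC in the Icam1 sequence below, were not counted or marked. They occur in 7.25%, 7.02%, 6.75% and 9.56% of 32851 mouse promoters of the same length. Icam1 is shown in full because its STAT motif lies nearest to the start among these matches, and Lcn2, Socs3 and Il1r1 are shown as 30 bases around their match. Capitals mark the motif, and every sequence reads 5′ to 3′ on the strand of the gene.

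Icam1, chr9:21015690-21015939, plus strand, TTCNNNGAA match 42 bases before the start:
Icam1: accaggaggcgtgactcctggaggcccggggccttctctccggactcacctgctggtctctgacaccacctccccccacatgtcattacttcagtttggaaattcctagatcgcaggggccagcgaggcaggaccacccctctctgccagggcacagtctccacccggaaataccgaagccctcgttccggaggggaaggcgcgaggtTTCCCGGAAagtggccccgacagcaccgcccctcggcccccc
Lcn2, chr2:32387937-32387966, minus strand, TTGCNNAA match 216 bases before the start:
Lcn2: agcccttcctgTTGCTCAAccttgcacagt
Socs3, chr11:117969502-117969531, minus strand, TTCNNNGAA match 154 bases before the start:
Socs3: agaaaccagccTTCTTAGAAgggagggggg
Il1r1, chr1:40224936-40224965, plus strand, TTGCNNAA match 133 bases before the start:
Il1r1: gcctggcacgtTTGCTGAAtgcttctggct

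Sele also held TTCCCAGAA and TGACTCA, Selp held TGATTCA, a second Il1r1 start held a kappaB match, and Ackr1 held none of the 4. By GENCODE vM21 the 30 bases shown for Lcn2 overlap an exon of Lcn2, and those shown for Socs3 lie inside the annotated Socs3 gene, so these 2 are not upstream of every annotated start. The 250 bases before the Ackr1 start overlap exons of Ackr1 and Cadm3. The matches are letters in a window and not measured sites. On build mm10 the genes lie at chr2:32384633-32388252 (Lcn2), chr9:21015985-21028817 (Icam1), chr3:116109949-116129688 (Vcam1), chr1:164115264-164150026 (Selp), chr1:164048234-164057677 (Sele), chr1:173331886-173333750 (Ackr1), chr1:40225080-40317257 (Il1r1), chr11:117966079-117970047 (Socs3) and chr6:125546774-125686679 (Vwf).

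The matrices held 63785513 UMIs in the cKO and 64756949 in the control library, and 5210 cKO and 7648 control cells were kept. Endothelial-like cells numbered 870 and 676, with a median of 7229.5 UMIs per cKO cell and 5977 per control cell, and all 12 endothelial markers were detected in both. Of them, 62 cKO and 31 control cells were venous-like, 452 and 338 capillary-like, and 228 and 188 arterial-like. Venous-like cells held 10 of 12 venous markers above the other endothelial groups, with those 12 markers summing to 2258 CPM (UMIs scaled to a class total of 1000000) in cKO and 2251 CPM in control cells. The 31 control venous-like cells lie under the 50 cells otherwise asked of a class, so their values carry wide intervals. Plxnb2, the targeted gene, was at 37.0 CPM in cKO and 199 CPM in control microglia-like cells, and at 8.11 and 9.08 CPM in endothelial-like cells. In venous-like cells it was at 21.7 CPM on 33 UMIs and 10.4 CPM on 7 UMIs, a log2 ratio of 1.06 whose interval spans 0 (-0.14 to 2.48). These 3′ tags do not show which exons were deleted.

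Over all endothelial-like cells, Lcn2, Icam1 and Vcam1 were at least 1.5-fold higher in the cKO library, among those of the set averaging 20 CPM. Lcn2 was 7.94-fold, Vcam1 2.13-fold and Icam1 1.95-fold higher. Of the 5 genes with at least 20 CPM on average over the libraries, these 3 were past 1.5-fold higher and 0 past 1.5-fold lower, against 0.953% and 1.27% of 6295 genes. Selp, Sele, Ackr1 and Socs3 lay under that level and were not counted. Ackr1 stood higher too, with a log2 ratio of 2.87 to 4.71 over the settings where both libraries held an Ackr1 UMI. Lcn2 reaches an average of 20 CPM only through the cKO library. The median log2 ratio was 0.96 over the 5 genes and 0.02 over all 6295. Because the genes were gathered with these ratios in view, the count describes them and supports nothing further. A count here goes by the ratio alone, with no test.

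Among the 5 genes that averaged 20 CPM, Lcn2 showed the widest difference, and among endothelial subtypes its level was highest in venous-like cells. In venous-like cells it was at 593 CPM in the cKO library (902 UMIs, 95% Poisson interval 555 to 633) and 83.3 CPM in the control library (56 UMIs, 62.9 to 108). The log2 ratio was 2.83 (exact conditional interval 2.44 to 3.25), or 7.12-fold. These and all later intervals cover counting error only. Per venous-like cell, Lcn2 had a lowest, median and highest count of 0, 8 and 135 UMIs in the cKO library and 0, 1 and 18 UMIs in the control library. The 2 sets of cells overlap, but 56 of 62 cKO cells held an Lcn2 UMI against 16 of 31 control cells, or 90.3% (exact binomial interval 80.1 to 96.4) and 51.6% (33.1 to 69.8). With each cell thinned to 1000 UMIs the shares were 41.9% and 6.45%. The cell with most Lcn2 gave 14.97% of the cKO and 32.1% of the control venous-like UMIs.

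Beyond veins, Lcn2 was at 30.9 CPM in cKO capillary-like cells (112 UMIs, 25.5 to 37.2) and 9.38 CPM in control ones (22 UMIs, 5.88 to 14.2), a log2 ratio of 1.72 (1.05 to 2.45). In arterial-like cells it was at 9.72 CPM (21 UMIs) and 1.46 CPM (2 UMIs), a ratio of 6.66 with an interval of 1.63 to 58.6. So within each library the order was venous, capillary, arterial, with intervals that do not overlap. Venous-like cells held 78.5% of the endothelial Lcn2 UMIs in the cKO and 63.6% in the control library, while holding 17.9% and 12.98% of all endothelial UMIs. The capillary difference was uneven among the capillary sub-clusters. Sub-cluster 0, the largest and shallowest of these, held 8 Lcn2 UMIs in 180 cKO cells and 7 in 129 control cells, or 10.9 and 16.2 CPM. Sub-cluster 9, led by the interferon-induced genes Ifit2, Ifit3b and Ifit3, held 35 UMIs in 42 cKO cells (92.6 CPM) and 0 in 19 control cells. When subtypes were given to single cells by marker level, the capillary log2 ratio was 0.40 and the venous one 3.53. At Leiden resolution 2.0 the capillary value was 3.02.

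Among the other named classes, Lcn2 lay in few cells. Neutrophil-like cells, whose granules are a textbook source of the protein, held 88 UMIs in 5 cKO cells and 111 UMIs in 6 control cells. Endothelial-like cells held 57.9% of the Lcn2 UMIs of all kept cKO cells and 35.9% of those of kept control cells. Of 1986 cKO and 245 control UMIs in all kept cells, 404 and 22 lay in cluster 8 and 312 and 16 in cluster 16, both endothelial-marked but left unnamed. Astrocyte-like cells held 3 UMIs in 1527 cKO cells and 5 in 2625 control cells, and microglia-like cells 4 and 1. Oligodendrocyte-like cells, which should lack endothelial genes, had an Lcn2 UMI in 6 of 561 cKO cells (1.07%) and 0 of 937 control cells, which allows a share of up to 0.320%. Their median depth of 7585 and 6396 UMIs was close to that of endothelial-like cells. In cKO barcodes under 100 UMIs, which hold mostly free RNA, Lcn2 was at 74.0, Vcam1 at 92.1, Vwf at 91.0, Icam1 at 43.6, Socs3 at 29.1, Il1r1 at 9.28 and Ackr1 at 2.58 CPM. These lie above the cKO capillary-like levels of Lcn2, Icam1 and Vcam1 and the cKO endothelial-like level of Socs3. The part of free RNA in those levels was not tested. The deposited control has no such barcodes. In oligodendrocyte-like cells of the cKO and control libraries a UMI was seen in 1.78% and 3.09% for Vcam1, 3.03% and 0.747% for Vwf, 0.357% and 0.854% for Socs3, 0.357% and 0.213% for Il1r1, and 0 of 561 and 2 of 937 cells for Ackr1.

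Markers of other cells were counted in the same venous-like cells. Of 12 neutrophil markers, 5 had a UMI in cKO cells (7 UMIs, 4.60 CPM) and 2 in control cells (2 UMIs, 2.98 CPM), with Ly6g, Mmp9, Ngp and Camp at 0 in both. Erythrocyte markers summed to 1528 CPM in cKO and 948 CPM in control cells, pericyte markers to 838 and 629 CPM, markers of fenestrated endothelium to 71.7 and 110.1 CPM, choroid plexus markers to 76.9 and 612 CPM, and fibroblast markers to 36.2 and 16.4 CPM. In capillary-like cells neutrophil markers were seen for 5 of 12 in each library, at 11.3 CPM in cKO and 7.67 CPM in control cells, erythrocyte markers at 271 and 353 CPM, pericyte markers at 573 and 511 CPM, fenestrated markers at 96.4 and 121 CPM and choroid plexus markers at 69.6 and 1051 CPM. In arterial-like cells neutrophil markers were seen for 7 and 4 of 12, at 9.72 CPM in cKO and 5.10 CPM in control cells, erythrocyte markers at 2235 and 504 CPM, pericyte markers at 738 and 480.4 CPM, fenestrated markers at 122 and 422 CPM and choroid plexus markers at 72.6 and 1405 CPM. Ly6g, Mmp9 and Ngp were at 0 in both subtypes of both libraries. Microglia markers summed to 1172 CPM in cKO and 1234 CPM in control venous-like cells. In capillary-like cells they summed to 1188 and 1331 CPM, and in arterial-like cells to 1250 and 1268 CPM. Monocyte or macrophage markers summed to 1469 and 1202, 1101 and 964, and 779 and 715 CPM in the same order. Astrocyte markers summed to 885 and 841, 1280 and 1446, and 1515 and 1752 CPM. The part of these lists in the results was not tested.

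**Figure D1:**
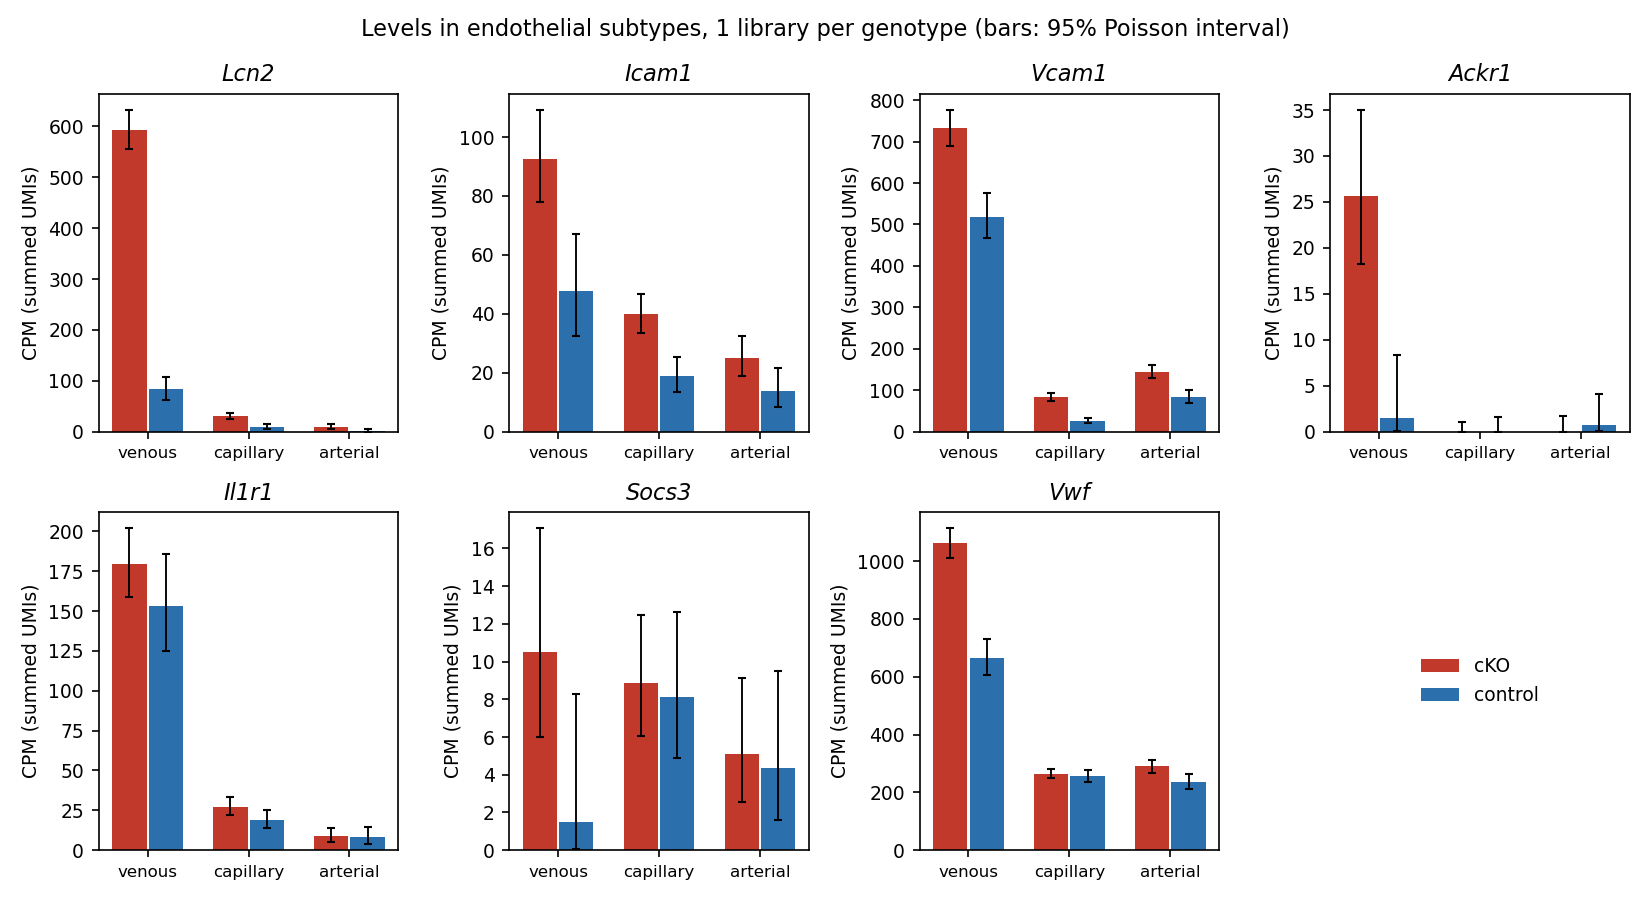
Level in CPM of 7 genes, 1 panel each, in venous-like, capillary-like and arterial-like endothelial cells of the cKO library (red) and the control library (blue), with 95% Poisson intervals. Lcn2 stands at 593 CPM in cKO and 83.3 CPM in control venous-like cells and is far lower in the other subtypes, while Il1r1 and Vwf are highest in veins of both libraries.

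**Figure D2:**
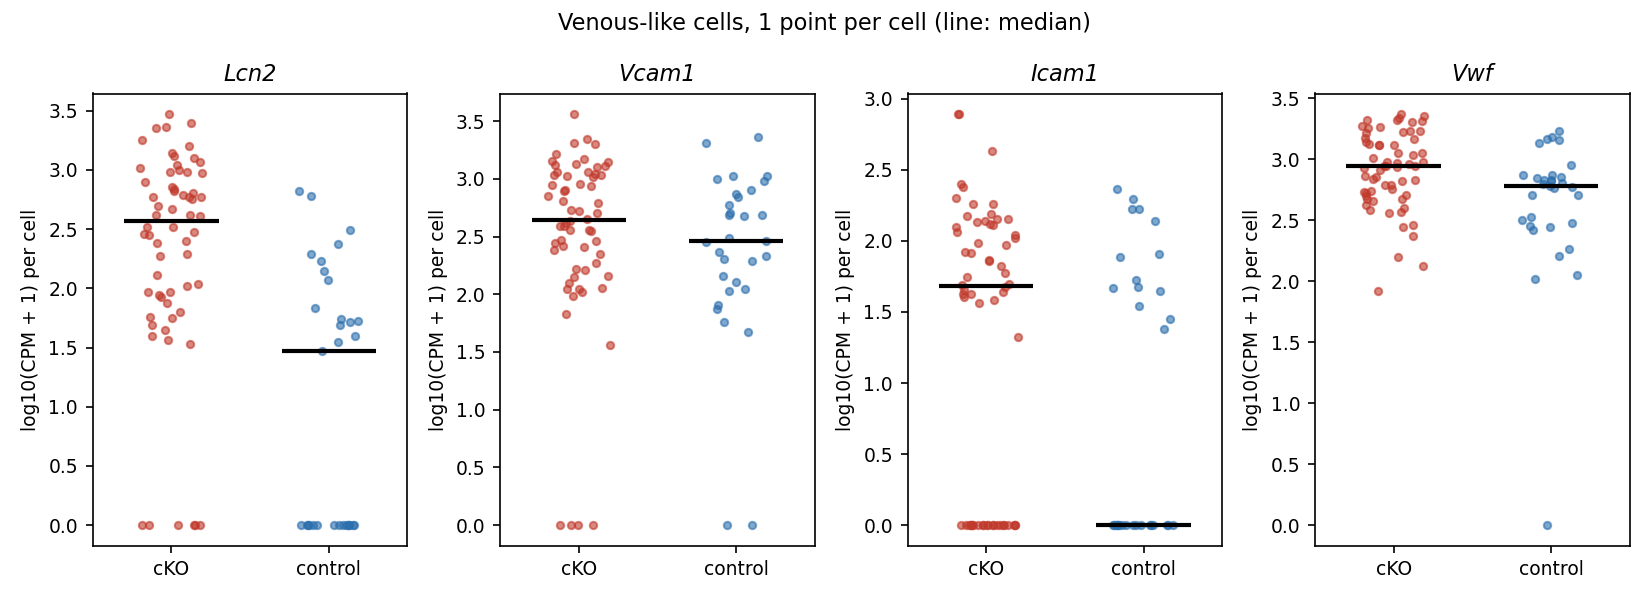
Each point is 1 venous-like cell, placed by log10(CPM + 1) of the gene named above the panel, for 62 cKO cells (red) and 31 control cells (blue), with a line at the median. For Lcn2 the median lies at 368 CPM in cKO and 28.7 CPM in control cells, and the points of the 2 libraries overlap in every panel.

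Both integrin ligands, Icam1 and Vcam1, were higher in cKO endothelium, each with its own place along the vessel. Icam1 was at 92.7 CPM in cKO and 47.6 CPM in control venous-like cells (141 and 32 UMIs). In capillary-like cells it was at 39.8 and 18.8 CPM (144 and 44 UMIs), and in arterial-like cells at 24.98 and 13.9 CPM (54 and 19 UMIs). The log2 ratios were 0.96 (0.40 to 1.56) in venous-like, 1.08 (0.59 to 1.61) in capillary-like and 0.85 (0.07 to 1.69) in arterial-like cells. The arterial one was 0.07 with subtypes given to single cells and 0.14 at a floor of 2000 UMIs. An Icam1 UMI was seen in 40 of 62 cKO and 14 of 31 control venous-like cells. The share was 64.5% and 45.2%, or 8.06% and 3.23% after thinning, against 1.60% and 0.640% of oligodendrocyte-like cells. Those last shares are unthinned and at unlike depth. The median was 7585 and 6396 UMIs in oligodendrocyte-like and 21780 and 20088 in venous-like cells.

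Vcam1 was at 733 CPM in cKO (1115 UMIs, 691 to 777) and 519 CPM in control venous-like cells (349 UMIs, 466 to 577), a log2 ratio of 0.50 (0.32 to 0.67). Nearly every venous-like cell held it, 58 of 62 and 29 of 31. Capillary-like cells were at 83.2 CPM in the cKO and 26.0 CPM in the control library (301 and 61 UMIs), a log2 ratio of 1.68 (1.28 to 2.10). Arterial-like cells were at 144 and 84.6 CPM (311 and 116 UMIs), with 0.77 (0.45 to 1.09). Of the capillary UMIs, 140 of 301 in the cKO and 10 of 61 in the control library lay in sub-cluster 5, at 163 and 17.6 CPM, while sub-cluster 3 was at 73.4 CPM (54 UMIs) and 58.7 CPM (34 UMIs). Without sub-cluster 5 the capillary log2 ratio was 1.02. A single cell gave 41.4% of the control arterial-like Vcam1 UMIs and 13.5% of the cKO ones. Within arterial-like cells Vcam1 lay mostly in sub-cluster 2, which holds 9 arterial markers, at 209 CPM in cKO and 129 CPM in control cells. The other arterial sub-cluster was at 21.3 and 2.08 CPM. With subtypes given to single cells the venous log2 ratio was 1.17 and the capillary one 1.29, and after thinning the capillary one was 3.22.

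Outside endothelium, Icam1 and Vcam1 marked different cells. Among named classes of at least 50 cells, Icam1 was highest in microglia-like cells, at 139 CPM in the cKO (598 UMIs, 128 to 151) and 83.1 CPM in the control library (478 UMIs, 75.8 to 90.9), a log2 ratio of 0.74 (0.57 to 0.92). T cell-like cells were at 74.7 and 48.4 CPM on 27 and 15 UMIs. Vcam1 was high in border macrophage-like cells, at 536 CPM (233 UMIs) and 354 CPM (220 UMIs). In astrocyte-like cells it was at 156 CPM (147 to 165) and 166 CPM (159 to 174), a log2 ratio of -0.09 (-0.19 to 0.01). The cKO astrocyte interval overlaps that of cKO arterial-like cells. Of the 3 genes measured in microglia-like cells, 2 were past 1.5-fold higher, Icam1 and Vcam1, against 2.83% of genes, and none lower, against 2.16%. Of the 3 measured in border macrophage-like cells, all of Icam1, Vcam1 and Socs3 were, against 15.3% of genes, with 9.32% of genes lower. Icam1, alone measured in T cell-like cells, was past it in a class where 18.0% of genes were higher and 14.2% lower. Vcam1 in astrocyte-like cells (0.68% of genes higher, 0.958% lower), Il1r1 in pericyte-like cells (16.7% and 16.0%) and Il1r1 and Socs3 in smooth muscle-like cells (15.3% and 10.9%) were not past it in either direction. None of the set averaged 20 CPM over the libraries in ependymal-like cells (1.98% and 0.85%) or oligodendrocyte-like cells (0.431% and 1.21%). These counts, too, only describe genes chosen with ratios in these libraries known.

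The selectins were barely detected as RNA. Selp had 1 UMI in 870 cKO endothelial-like cells and 0 in 676 control cells. Sele had 3 UMIs in cKO endothelial-like cells, 2 of them in arterial-like cells, and 0 in control ones. A count of 0 allows a control level of up to 0.580 CPM in endothelial-like cells. Over all kept cells Selp held 6 cKO and 3 control UMIs and Sele 5 and 0. Neither can be compared between the libraries at this depth.

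Ackr1, the venular chemokine carrier, was almost confined among named endothelial subtypes to cKO venous-like cells. It had 39 UMIs there (25.6 CPM, 18.2 to 35.0) against 1 UMI in control venous-like cells (1.49 CPM), a ratio of 17.2 with an interval of 2.92 to 698. Only 12 of 62 cKO cells held it, all 12 with Lcn2 as well, and 1 cell gave 43.6% of the UMIs. Capillary-like cells had 0 UMIs in both libraries, and arterial-like cells 0 in the cKO and 1 in the control. Astrocyte-like cells held 8 and 3 UMIs, no more than 1 per cell. A further cluster with endothelial and haemoglobin markers, left unnamed, held 53 cKO UMIs and 1 control UMI. After thinning to 1000 UMIs no venous-like cell kept an Ackr1 UMI.

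Il1r1, the IL-1 receptor, was highest in veins in both libraries, with a venous ratio between libraries whose interval spans 0. Venous-like cells were at 179 CPM in the cKO (273 UMIs, 159 to 202) and 153 CPM in the control library (103 UMIs, 125 to 186), a log2 ratio of 0.23 (-0.10 to 0.57). A UMI was found in 55 of 62 and 25 of 31 cells. In capillary-like cells the level was 27.3 and 18.8 CPM, with 0.54 (0.02 to 1.09), and in arterial-like cells 8.79 and 8.02 CPM. Venous over capillary gave a log2 ratio of 2.71 (2.38 to 3.06) in the cKO and 3.03 (2.51 to 3.57) in the control library. Pericyte-like cells were at 46.6 and 43.7 CPM and smooth muscle-like cells at 47.1 and 53.7 CPM, with intervals that overlap between the classes and the libraries. Control choroid plexus-like cells, of which the cKO library held only 4, were at 16.5 CPM.

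Socs3 was higher in myeloid than in endothelial cells, and it also averaged at least 20 CPM in smooth muscle-like cells. Microglia-like cells were at 140.2 CPM in the cKO (603 UMIs, 129 to 152) and 111 CPM in the control library (637 UMIs, 102 to 120), a log2 ratio of 0.34 (0.18 to 0.50). Border macrophage-like cells were at 99.0 CPM (43 UMIs) and 29.0 CPM (18 UMIs), a log2 ratio of 1.77 (0.95 to 2.65), with 1 cell giving 14 of the 43 and 9 of the 18 UMIs. Ependymal-like cells were at 23.0 and 10.4 CPM, with 1.15 (0.61 to 1.70). All endothelial-like cells were at 8.58 CPM (73 UMIs) and 5.80 CPM (30 UMIs), with 0.57 (-0.07 to 1.23). In venous-like cells there were 16 UMIs in 13 of 62 cKO cells and 1 UMI in 31 control cells, a ratio of 7.07 whose interval runs from 1.10 to 296.

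Vwf was found in all 3 subtypes. It was at 1061 CPM in cKO (1614 UMIs) and 665 CPM in control venous-like cells (447 UMIs), a log2 ratio of 0.67 (0.52 to 0.83). Capillary-like cells were at 265 and 257 CPM, with 0.04 (-0.11 to 0.19), and arterial-like cells at 289.6 and 236 CPM, with 0.29 (0.10 to 0.49). A Vwf UMI was found in 62 of 62 cKO and 30 of 31 control venous-like cells. The venous ratio was 0.44 at Leiden resolution 0.5 and 1.58 after thinning.

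**Figure D3:**
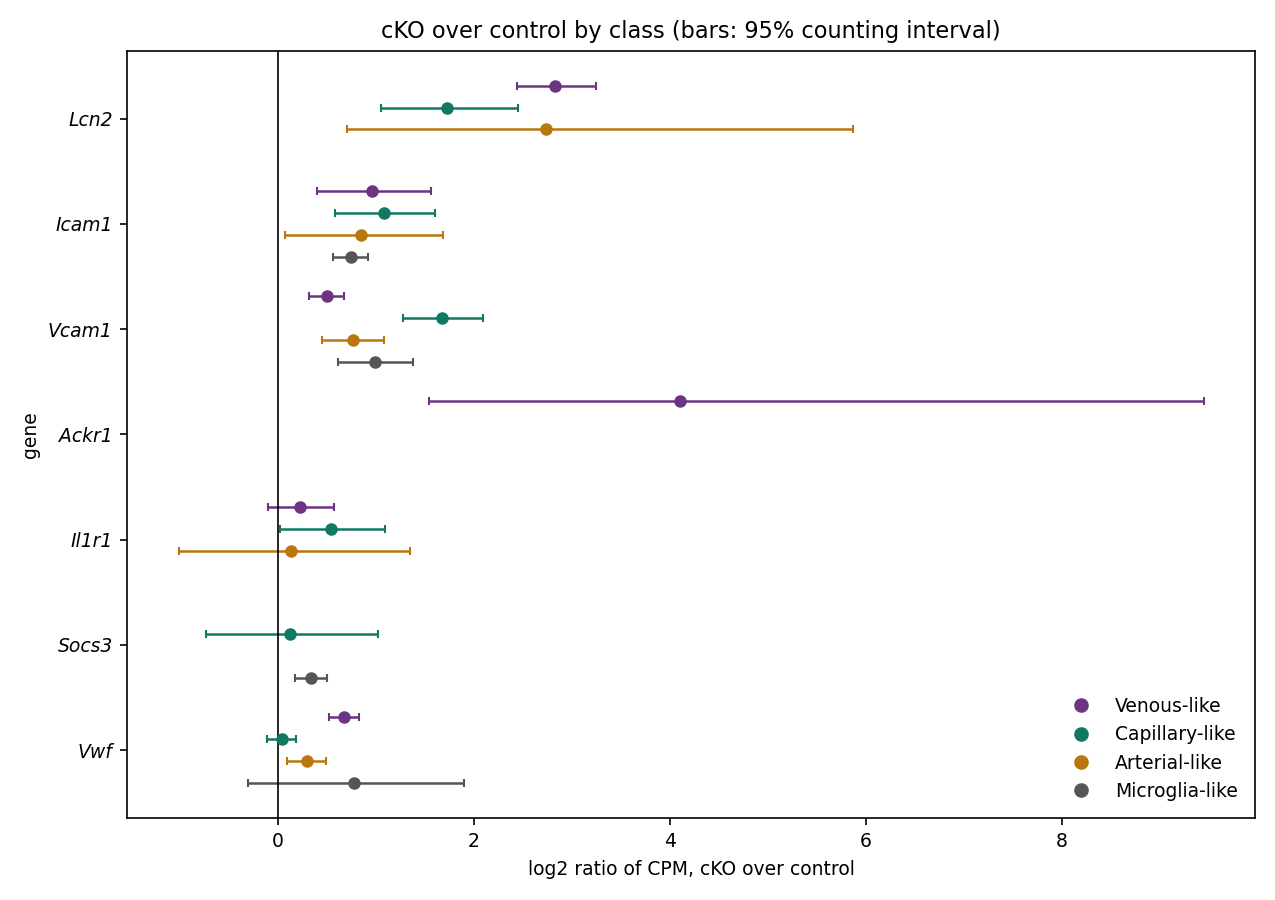
Log2 ratio of CPM, cKO over control, of 7 genes in venous-like, capillary-like, arterial-like and microglia-like cells, with 95% counting intervals, drawn where the 2 libraries together hold at least 20 UMIs. In these 4 classes every Lcn2, Icam1 and Vcam1 point lies above 0, the capillary Vcam1 ratio of 1.68 lies above the venous one of 0.50, and intervals of Il1r1 in venous-like and arterial-like cells cross 0.

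Of the 5 genes measured in both subtypes, 5 were at least 1.5-fold higher in venous-like than in capillary-like cells of the cKO library, against 4.76% of genes, with 4.1% of genes lower. In the control library 5 of 5 were, against 8.28%, with 5.55% of genes lower. Of these, Lcn2, Icam1 and Il1r1 lay under 20 CPM in control capillary-like cells. They reach that average only through venous-like cells, so the control count supports nothing. At Leiden resolution 2.0 the control log2 ratio of venous over capillary was 0.30 for Icam1 and 0.50 for Vwf, both under 1.5-fold, and after thinning that of Vwf was 0.55. Socs3 was at 10.5 CPM in venous-like and 8.84 CPM in capillary-like cells of the cKO library, and at 1.49 CPM on 1 UMI and 8.10 CPM on 19 UMIs in the control library. Its log2 ratios, 0.25 (-0.71 to 1.16) and -2.44 (-7.82 to 0.21), have intervals that span 0. Sele had no venous UMI. The 9 genes were left out of the clustering and of the naming markers. Among the 5 measured genes, Lcn2 had the widest cKO ratio, 19.2-fold (15.7 to 23.5), and was 8.89-fold (5.34 to 15.3) in the control library. Ackr1, under 20 CPM on average, had 39 UMIs in cKO venous-like and 0 in cKO capillary-like cells. For Vcam1 the venous over capillary ratio was 8.81-fold in the cKO and 20.0-fold in the control library, and the intervals, 7.75 to 10.0 and 15.2 to 26.7, do not overlap. Vwf was 4.01-fold and 2.58-fold, and Icam1 2.33-fold and 2.54-fold. Arterial-like cells were higher than capillary-like cells in Vcam1 and lower in Lcn2 and Icam1 in the cKO library, where 4.31% of genes were past the same fold higher and 3.05% lower. Lcn2 reaches an average of 20 CPM there only through capillary-like cells, so its place among the lower genes supports nothing. In the control library 1 of 2 measured genes, Vcam1, was higher, against 5.63%, and 0 lower, against 3.96%. The genes were chosen with their subtype levels known, so all these counts describe them and support nothing further.

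Between the libraries, venous-like cells had 3 of 5 measured genes (Lcn2, Icam1 and Vwf) at least 1.5-fold higher in the cKO, against 4.48% of genes higher and 6.66% lower. Capillary-like cells also had 3 of 5 (Lcn2, Icam1 and Vcam1), against 1.67% higher and 1.7% lower. Of these, Lcn2 and Icam1 reach an average of 20 CPM only through the cKO library, the control being at 9.38 and 18.8 CPM, so the capillary count supports nothing. Without sub-cluster 5, the log2 ratios there were 1.46 for Lcn2 and 0.81 for Icam1. Arterial-like cells had 1 of 2 (Vcam1), against 2.95% higher and 3.38% lower. Over the main and alternative settings the arterial Vcam1 log2 ratio ran from 0.22, which is under 1.5-fold, to 1.04. No measured gene of the set was 1.5-fold lower in these 3 subtypes. The genes were chosen with these ratios known, so the venous and arterial counts also describe them and support nothing further. Among single venous-like cells of the cKO library, 38 of the 56 with Lcn2 also held Icam1 and 54 held Vcam1. In the control library 11 of the 16 with Lcn2 held Icam1 and all 16 held Vcam1. A cKO venous-like cell held a median of 5 of the 9 genes and a control one 4, at median depths of 21780 and 20088 UMIs.

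**Figure D4:**
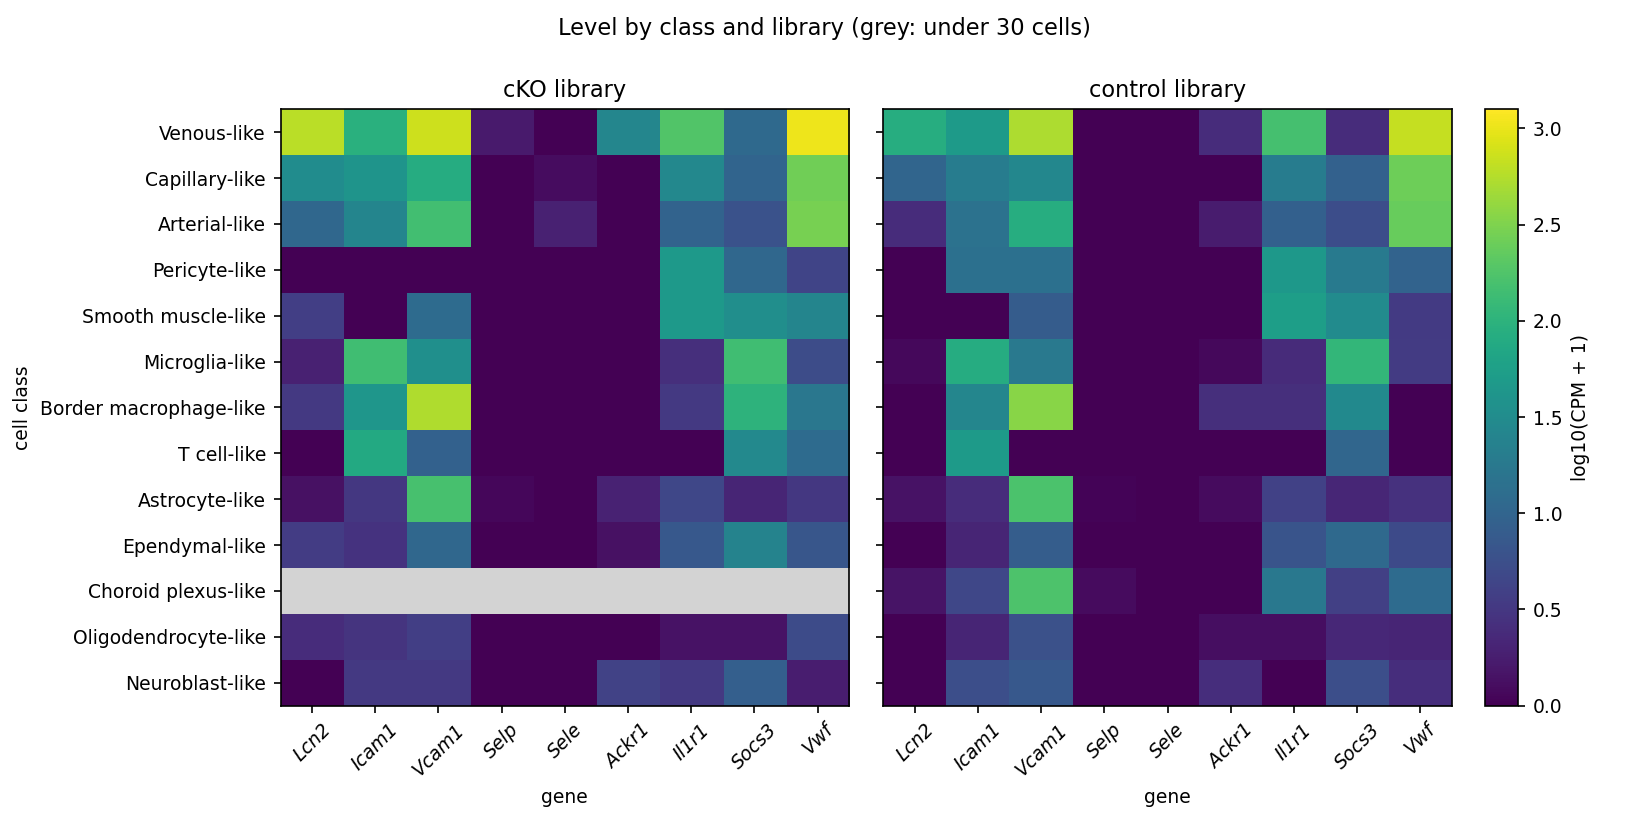
Level of the 9 genes (columns) in named cell classes (rows) as log10(CPM + 1), cKO library on the left and control on the right. Grey marks a class with under 30 cells. Neutrophil-like, fibroblast-like and neuron-like cells, each under 30 cells per library, are not drawn. Of the rows drawn, the venous-like row is brightest for Lcn2, Vcam1, Il1r1 and Vwf in both libraries. Icam1 and Socs3 are bright in microglia-like cells, and the Selp and Sele columns are dark throughout.

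Other endothelial genes of the same pathways mostly lay close to equality. In all endothelial-like cells, none of the 12 measured adhesion and junction genes was past 1.5-fold in either direction (median log2 ratio 0.02). Esam, a tight-junction adhesion protein, was at 639 CPM in cKO and 572 CPM in control cells. Ceacam1, a cell adhesion receptor, was at 105 and 119 CPM, F11r at 174 and 156 CPM and Podxl, a sialomucin of the luminal surface, at 521 and 567 CPM. None of 8 measured haemostasis and granule genes passed either (median 0.05). Angpt2, stored with von Willebrand factor, was at 16.8 and 24.9 CPM, Cd63 at 21.9 and 29.2 CPM, Plat, the tissue plasminogen activator, at 300.3 and 246 CPM and Edn1, encoding endothelin-1, at 969 and 799 CPM.

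Of 6 measured NF-kB targets 1 was past 1.5-fold higher and 0 lower (median 0.20), against 0.953% and 1.27% of genes. It was Csf1, the microglial growth factor, at 56.0 CPM in cKO and 37.3 CPM in control cells. Nfkbia, the inhibitor of NF-kB, was at 1262 and 1044 CPM, Nfkb1 at 78.6 and 68.2 CPM and Relb at 23.1 and 20.1 CPM. None of 5 measured IL-1 receptor pathway genes passed (median 0.05), with the signalling kinases Irak2 at 36.0 and 42.1 CPM, Irak1 at 107 and 96.2 CPM and Map3k7 at 32.9 and 37.1 CPM, and the adaptor Tab2 at 119 and 113 CPM.

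Of 11 measured STAT3 and acute-phase genes, 2 were past 1.5-fold higher and 0 lower (median 0.18), against the same 0.953% and 1.27%. Ch25h, which makes 25-hydroxycholesterol, was at 37.5 CPM in cKO and 10.4 CPM in control endothelial-like cells, a log2 ratio of 1.85 (1.43 to 2.29). It reaches an average of 20 CPM only through the cKO library, so the count of 2 supports nothing. Cebpd, a C/EBP transcription factor, was at 303 and 201 CPM, with 0.59 (0.48 to 0.69). Stat3 was at 114 and 88.7 CPM and Osmr, the oncostatin M receptor, at 68.7 and 54.5 CPM. In venous-like cells 4 of 12 genes were past 1.5-fold higher, against 4.48% of genes. They were Lrg1, an acute-phase glycoprotein, at 108 and 13.4 CPM, Ch25h at 154 and 46.1 CPM, Cp, encoding the copper protein ceruloplasmin, at 330.0 and 153 CPM, and Osmr at 102 and 67.0 CPM. Lrg1 reaches an average of 20 CPM only through the cKO library, so the venous count supports nothing either. One gene of 12, Socs2, was lower, at 97.3 and 150 CPM, against 6.66% of genes. Among adhesion genes in venous-like cells 1 of 12, Cd99l2, was lower, at 25.6 and 43.2 CPM. The genes named for venous-like cells are the whole of these counts and were picked after their values were seen.

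Partners of the 9 genes were followed in the named classes. Il1b was at 76.5 CPM in cKO and 17.4 CPM in control microglia-like cells (329 and 100 UMIs), and at 578 and 83.7 CPM in border macrophage-like cells (251 and 52 UMIs). Il1a was at 175 and 69.7 CPM in microglia-like cells. The ICAM1-binding integrin chains Itgam and Itgb2 were at 684 and 575 CPM, and at 229 and 225 CPM, in microglia-like cells. Itga4, the VCAM1-binding chain, was at 260.0 and 304 CPM in T cell-like cells and at 326 and 306 CPM in pericyte-like cells. Itgb1, the beta chain that pairs with it, was at 438 and 436 CPM in endothelial-like cells and at 1122 and 1092 CPM in pericyte-like cells. Glg1, an E-selectin ligand, was at 94.0 and 92.3 CPM in endothelial-like cells. Selplg, the selectin ligand PSGL-1, was at 2285 and 2493 CPM in microglia-like cells. Slc22a17, a lipocalin-2 receptor, was at 15.04 and 26.1 CPM in endothelial-like cells, a log2 ratio of -0.79 (-1.15 to -0.43), at 239 CPM in astrocyte-like cells of both libraries and at 1250.2 CPM in control choroid plexus-like cells. It was the 1 of 3 measured partners past 1.5-fold lower in endothelial-like cells, against 1.27% of genes. Slc22a17 reaches an average of 20 CPM there only through the control library, so that count supports nothing.

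Genes with the most similar pattern were sought over 24 sums of a class in a library with at least 50 cells, by Pearson's r of log2(CPM + 1), as a description of sums that share libraries and depth. The only venous sum was that of the cKO library, as control venous-like cells were too few. Likeness to venous markers therefore leans on that sum. Neutrophil-like cells were in none of the sums. Lcn2 was most like Slc38a5 (r = 0.90), a venous marker used in naming, then Gm32688 (0.87) and Nos2 (0.86). Il1r1 was most like Gjc1 (0.91), Prss23 (0.90) and the venous transcription factor Nr2f2 (0.89), another naming marker. For Ackr1 the nearest were Adgrg6 (0.84), also a naming marker, Gm5127 (0.80) and Lrg1 (0.78). Vwf lay nearest to Ptprb (0.97), Mecom (0.96) and Srarp (0.96), of which Ptprb encodes an endothelial phosphatase. Icam1 paired with Casp4 (0.94), Tnfrsf1b (0.94) and P2ry10b (0.92), Vcam1 with Dab2 (0.88), Mroh1 (0.76) and Trpv4 (0.74), and Socs3 with Ier5 (0.87), Cebpb (0.87) and Myd88 (0.85).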

How the data were processed

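Raw UMI counts per gene and barcode were deposited by the authors, 1 matrix per host, made with Cell Ranger 7.1.0 on build mm10 per the submitters' processing notes. Per the labels' protocols, tissue was dissociated with papain, cleared of debris on Percoll, freed of red cells by lysis and run on a 10x Genomics 3′ v3.1 kit. Neither the annotation release nor the handling of intronic reads is stated in the sources used here. Of the deposited matrices, the control one lists 10942 barcodes, none under 500 UMIs, and the cKO one 2377349, with 20.6% of UMIs in barcodes under 500. The same filters were set on both. Of 32285 gene identifiers, 99.6% are in GENCODE vM21, used for coordinates.

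Scrublet, run per library in scanpy 1.11.5 with an expected share of 6%, called 3.48% of cKO and 5.21% of control cells, which were removed. The libraries shared 8 barcodes among kept cells. Cells were clustered together on log counts per 10000 (2000 variable genes without the 9 genes, mitochondrial or sex-linked genes, 30 components, Leiden resolution 1.0, no integration). A cluster needed at least 3 markers at 2-fold and in 10% of its cells, and stayed unnamed with 75% of the markers of a second class. Endothelial-like cells were clustered again with each gene scaled within its library. Venous and arterial names needed 3 markers at 1.5-fold over the other sub-clusters, and capillary names 3 at 1.5-fold over venous and arterial ones. These sub-cluster rules, and an allowance for haemoglobin in endothelial clusters, were set after the data were seen. P2ry12 and Ttr, markers of other classes among the top 10 genes of a capillary and an arterial sub-cluster, were found in 8.93% to 14.5% and 31.1% to 47.1% of cells of the 8 named sub-clusters.

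For each class, UMIs of a library were added up and given as CPM. Levels carry Poisson, shares Clopper-Pearson and ratios conditional Clopper-Pearson intervals, exact and at 95%. With 1 library per group no test was made. A count of 0 was given a limit of 3 counts where a limit is given. The ratio step was tested on simulated sums with counting error only, which cannot show spread between cells or animals. Its intervals covered the true value for 95.4% of 6095 unchanged genes. For 50 genes each at log2 ratios of -2, -1, 1 and 2 they covered 100%, 92.0%, 82.0% and 96.0%. Genes named are the 9, Plxnb2, up to 4 of each of 6 lists with the widest endothelial ratio, partners with at least 30 UMIs, and the 3 genes most alike. The 9 genes and all lists were chosen with earlier results of these data known.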

Additional observations from a re-analysis of the deposited data

Results flagged for a closer look

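Some endothelial-marked or microglia-marked cells lay in clusters that the naming rules left out, and the genes differed there between the libraries too. Cluster 8, with all 12 endothelial and all 10 pericyte markers, held 334 cKO and 166 control cells. Its log2 ratio of cKO over control was 3.11 for Lcn2 (65.4 and 7.57 CPM) and 2.01 for Vcam1 (137 and 34.1 CPM). Cluster 16, with all 12 endothelial markers but led by haemoglobin genes, held 99 cKO and 93 control cells. Its log2 ratios were 3.78 for Lcn2 (179 and 13.1 CPM), 2.05 for Icam1, 2.91 for Vcam1, 5.22 for Ackr1 (53 and 1 UMIs), 3.22 for Il1r1 and 1.64 for Vwf. In that cluster the 12 venous markers summed to 906 CPM in cKO and 541 CPM in control cells, and erythrocyte markers to 191434 and 251002 CPM. Their part in those ratios was not tested. Cluster 7, with microglial markers and a median of 1460 and 1378.5 UMIs per cell, had a log2 ratio of 0.72 for Icam1.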

How the results depend on the processing

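No paired analysis was possible because there was 1 library per group, both numbered 1 in the labels. Alternatives were UMI and mitochondrial limits, Leiden resolution, doublet calls kept, thinning, equal weight per cell, other subtype naming and, chosen after seeing the data, 2 regroupings of endothelial-marked cells and capillary-like cells without sub-cluster 5. Lcn2, Icam1, Vcam1, Il1r1 and Vwf kept a positive log2 ratio over all endothelial-like cells in each of them. Socs3, from 0.30 to 1.64, did too, on few UMIs. So did Ackr1, from 2.87 to 4.71, in the 9 alternatives with a UMI in both libraries. Of 69 such values over the set, 59 stayed within the counting interval. The others were Lcn2 at 2.53 with equal weight per cell, Vcam1 at 1.34 thinned, 1.29 with equal weight, 1.24 with the pericyte-marked cluster added, 1.40 with all endothelial-marked clusters and 0.91 with doublet calls kept, Socs3 at 1.64 thinned, and Vwf at 0.27 thinned, 0.35 with equal weight and 0.63 at a floor of 2000 UMIs. Venous-like cells numbered 62 and 31, but 168 and 108 at that floor, and 229 and 200 when subtypes were given per cell. Over these choices the venous log2 ratio ran from 2.48 to 3.53 for Lcn2, 0.78 to 1.58 for Icam1, 0.27 to 1.17 for Vcam1, -0.04 to 0.58 for Il1r1 and 0.44 to 1.58 for Vwf. The capillary one ran from 0.40 to 3.02 for Lcn2, 1.02 to 3.22 for Vcam1 and -0.25 to 0.29 for Vwf. The venous over capillary one ran from 2.61 to 4.67 in cKO and 1.26 to 3.68 in control cells for Lcn2, and over the set 38 such values left the counting interval and 103 did not. The causes were not tested. Depth limits Selp, Sele, Ackr1 and Socs3 in endothelium, and no setting stands in for a second animal.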
